A study of Mus musculus with 8 samples.

Results

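Transcription factors of the resting, lymphoid state of T cells were followed in regulatory T cells (Tregs) that differ in tissue and in the nuclear receptor gene Pparg. The set holds 6 genes, Tcf7, Lef1, Bach2, Satb1, Id3 and Foxp1, taken by symbol from the 55011 genes of the count table because they are known factors of naive and central Tregs. The set and the gene lists used below were chosen with earlier results of these data known. Shares of all genes given beside their counts therefore describe the sets and do not test them. RNA was sequenced from Tregs of the skin and the spleen of 2-week-old mice (d13 in the sample titles), with 2 libraries for each of 4 groups and 1000 double-sorted cells per library. The control groups were Pparg+/+ Foxp3-Cre (WT) and the mutant groups Ppargf/f Foxp3-Cre (KO), so Cre recombinase driven from Foxp3 was present in every library and the floxed Pparg gene only in the KO. The labels do not say whether cells of several mice were pooled or whether replicates came from separate mice. All p-values therefore measure only the spread between these libraries, which may be technical. Replicate 1 of every group held Xist RNA and replicate 2 held Y-linked RNA, so sex is part of that spread.

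Tcf7 and Lef1 encode TCF-1 and LEF1, related HMG-box proteins that bind the same DNA motif and act with beta-catenin as activators or with TLE proteins as corepressors. They maintain naive and central memory T cells and are low in effector cells. BACH2 is a repressor that pairs with small MAF proteins and restrains effector genes, among them Prdm1, SATB1 folds chromatin and is needed when Tregs form in the thymus, ID3 blocks the DNA binding of E proteins, and FOXP1 is a forkhead factor of T cell quiescence related to FOXP3. PPARgamma is known as a regulator of Tregs in adipose tissue and other non-lymphoid sites.

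Library totals ran from 3115832 to 4466963 counts. The 6 factors had at least 13 counts in every library and were all among the 12414 genes tested. Levels are CPM, counts scaled to a common library size with the trimmed-mean (TMM) factors of edgeR, given as mean ± SD over n = 2 libraries. Pparg, which checks the genotype labels, had, in skin, 75.7 and 59.8 CPM in the WT libraries and 8.46 and 13.3 in the KO libraries and, in spleen, 22.5 and 12.3 against 2.16 and 1.66. It was lower in the KO by a log2 fold change of -2.59 in skin (adjusted p = 0.000609) and -2.89 in spleen (adjusted p = 0.00418). The spleen call ended with limma-voom (adjusted p = 0.0716) and without KO spleen replicate 2 (adjusted p = 0.0602). Each p is from edgeR's quasi-likelihood test fitted to all 8 libraries, adjusted by Benjamini-Hochberg over the 12414 genes, and passed when under 0.05. The T cell and Treg markers, among them Cd3e, Cd4, Foxp3, Il2ra and Ctla4, were above 0 in all 8 libraries and summed to between 4964 and 5588 CPM of the total count in skin and between 3118 and 3276 in spleen.

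The members lie on 5 chromosomes of the mm10 genome, by the GENCODE M21 annotation. Tcf7 is at chr11:52252371-52283014 on the minus strand and Lef1 at chr3:131110471-131224356 on the plus strand. Bach2 is at chr4:32238804-32586108 (plus), Id3 at chr4:136143497-136145755 (plus), Satb1 at chr17:51736187-51833290 (minus) and Foxp1 at chr6:98925338-99522721 (minus). RefSeq promoter windows on GRCm38.p6, from 250 bases before to 50 after an annotated start, numbered 16 for the 6 genes. They were searched on both strands for 5 motifs, and a match describes letters, not a bound site. The TCF/LEF letters CTTTGA were in 3 of the 16 windows (1 each of Lef1, Bach2 and Foxp1) and in 16% of all 32851 windows. The forkhead letters GTAAACA were in 1 of 16 (Tcf7) and in 3.65% of all windows. The E protein letters CANNTG were in 13 of 16 and in 72.3% of all windows. The PPAR and RXR letters, a repeat of AGGTCA with any base between the copies, were in none of the 16 and in 0.0396% of all windows. The BACH and MAF letters, TGCTGA followed by GTCA, were in none of the 16 and in 0.155% of all windows. None of the TCF/LEF or forkhead matches overlapped a match of another motif.

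The windows with a TCF/LEF or forkhead match are printed because TCF/LEF and forkhead proteins are among the members themselves. Whether these letters bear on expression was not tested. Each window runs 5′ to 3′ on the strand of its gene, with the match in capitals. The Tcf7 window is chr11:52282546-52282845 (minus), at a start inside the gene, with GTAAACA as searched. The other Tcf7 window, at the annotated 5′ end of the gene (chr11:52282965-52283264), had no TCF/LEF or forkhead match and is not printed. The Lef1 window is chr3:131156044-131156343 (plus), at a start inside the gene, with TCAAAG, the reverse complement of CTTTGA, at 2 places. The Bach2 window is chr4:32417185-32417484 (plus) and the Foxp1 window chr6:99266466-99266765 (minus), each at a start inside the gene with TCAAAG once.
Tcf7: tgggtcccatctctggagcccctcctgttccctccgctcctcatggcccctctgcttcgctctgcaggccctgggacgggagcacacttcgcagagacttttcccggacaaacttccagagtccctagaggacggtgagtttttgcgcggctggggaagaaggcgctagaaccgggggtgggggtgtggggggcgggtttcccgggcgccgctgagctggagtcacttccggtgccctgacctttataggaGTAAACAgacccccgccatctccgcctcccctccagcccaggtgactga
Lef1: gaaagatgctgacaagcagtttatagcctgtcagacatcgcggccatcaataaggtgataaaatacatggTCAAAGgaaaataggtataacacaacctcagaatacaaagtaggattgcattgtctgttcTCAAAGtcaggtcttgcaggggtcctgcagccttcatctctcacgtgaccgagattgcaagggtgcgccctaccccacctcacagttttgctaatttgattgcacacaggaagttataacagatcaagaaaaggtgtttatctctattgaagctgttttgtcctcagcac
Bach2: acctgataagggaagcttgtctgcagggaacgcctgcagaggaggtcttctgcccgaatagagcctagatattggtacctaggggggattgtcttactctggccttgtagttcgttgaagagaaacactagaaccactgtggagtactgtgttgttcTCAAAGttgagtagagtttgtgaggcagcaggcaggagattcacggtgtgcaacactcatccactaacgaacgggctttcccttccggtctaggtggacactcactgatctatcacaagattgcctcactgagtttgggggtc
Foxp1: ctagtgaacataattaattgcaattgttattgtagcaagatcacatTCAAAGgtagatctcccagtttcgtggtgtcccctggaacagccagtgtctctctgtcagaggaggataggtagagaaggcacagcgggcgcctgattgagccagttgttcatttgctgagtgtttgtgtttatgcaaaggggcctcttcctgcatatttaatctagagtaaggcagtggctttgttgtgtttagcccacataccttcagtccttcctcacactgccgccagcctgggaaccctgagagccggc

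All 6 factors were lower in skin than in spleen Tregs, and within each genotype both skin libraries lay below both spleen libraries. Among all genes tested, 34.6% had both skin libraries below both spleen libraries in WT and 33.3% in KO. Tcf7 was 35.9-fold lower in skin than in spleen in WT, Id3 16.6-fold, Satb1 13.4-fold, Bach2 9.0-fold, Lef1 3.85-fold and Foxp1 2.40-fold. In bulk libraries such as these, fewer cells that express a gene and less of its RNA per cell cannot be told apart.

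**Figure D1:**
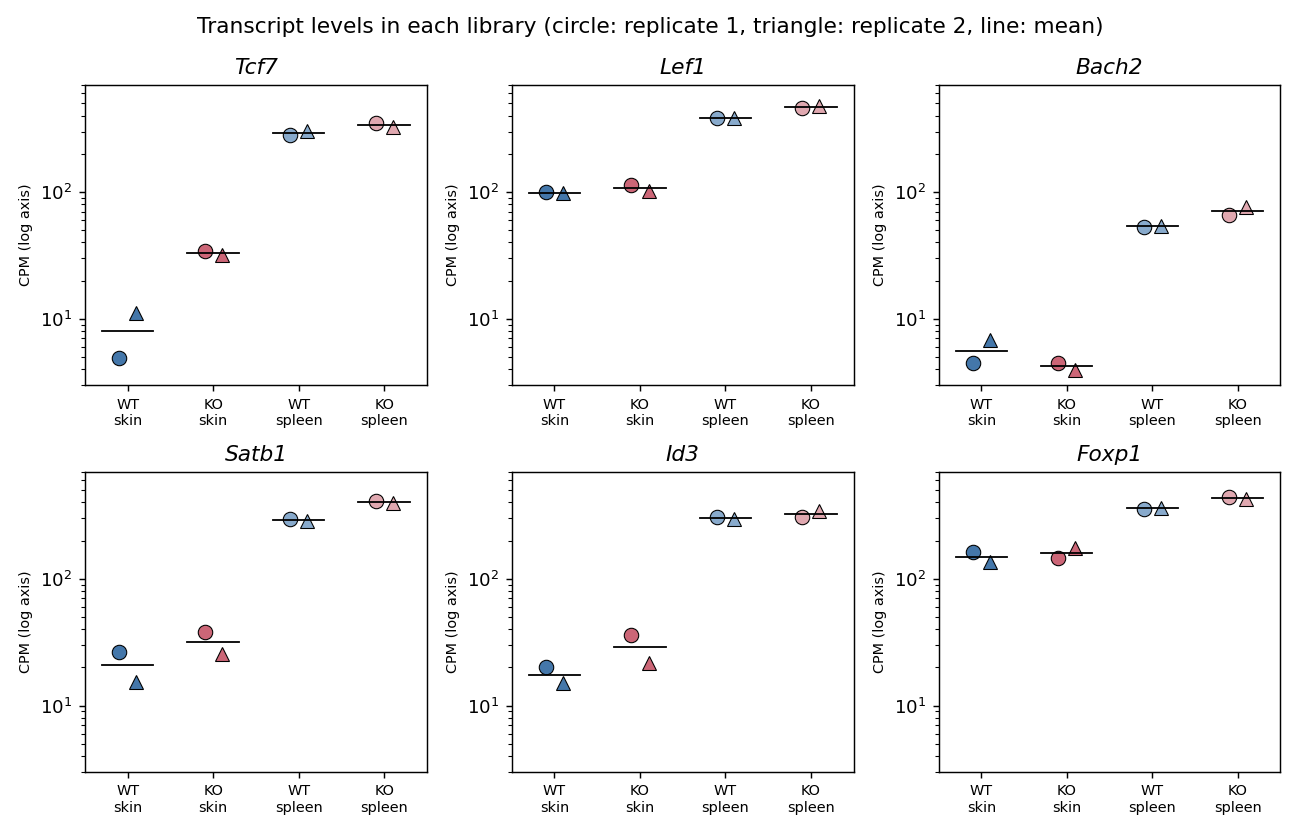
Transcript level of the 6 transcription factors in each of the 8 libraries, in CPM after TMM scaling on a log axis shared by all panels. Circles are replicate 1, triangles replicate 2 and lines the mean of each group, and the KO skin points stand clear of the WT skin points in the panel of Tcf7.

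Tcf7 had, in skin, 4.93 and 11.03 CPM in the WT libraries and 34.1 and 32.0 in the KO libraries and, in spleen, 280 and 303 against 349 and 327. The WT skin libraries were the lowest, both KO skin libraries lay above them, and all spleen libraries were far higher. Its log2 difference between skin and spleen was -5.17 ± 0.241 (SE; adjusted p = 1.87e-11) in WT and -3.33 ± 0.180 (adjusted p = 5.95e-10) in KO. Lef1, the closest relative of Tcf7 in the set, had, in skin, 99.6 and 98.2 CPM in the WT libraries and 113 and 102 in the KO libraries and, in spleen, 381 and 384 against 463 and 477. The libraries of a group lay close together, and skin and spleen did not overlap. Its log2 difference between tissues was -1.94 ± 0.115 in WT (adjusted p = 8.10e-10) and -2.12 ± 0.114 in KO (adjusted p = 3.03e-10).

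Id3, the E protein inhibitor, had, in skin, 20.0 and 14.9 CPM in the WT libraries and 36.2 and 21.7 in the KO libraries and, in spleen, 309 and 297 against 305 and 343. The spleen groups overlapped each other, whereas both KO skin libraries lay above both WT skin libraries, the nearest pair by little. Satb1, the chromatin organiser, had, in skin, 26.4 and 15.3 CPM in the WT libraries and 38.3 and 25.3 in the KO libraries and, in spleen, 299 and 285 against 412 and 400. The skin groups overlapped and the spleen groups did not. In each of the 4 groups replicate 1 was above replicate 2 for Satb1, by 1.72-fold in WT skin, 1.51-fold in KO skin, 1.05-fold in WT spleen and 1.03-fold in KO spleen. Bach2, the repressor, was the lowest member, with 4.44 and 6.76 CPM in the WT and 4.49 and 3.92 in the KO libraries of skin, and 52.7 and 54.4 against 66.1 and 75.9 in spleen. Its skin levels rested on 13 to 19 counts per library and overlapped between genotypes. Foxp1 had, in skin, 163 and 136 CPM in the WT libraries and 145 and 176 in the KO libraries and, in spleen, 354 and 365 against 439 and 423. The skin groups of Foxp1 overlapped, and both KO spleen libraries lay above both WT spleen libraries.

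The test between skin and spleen passed for 6 of 6 members in WT, all lower in skin, where it passed for 31.8% of the 12414 genes and for 15.2% in the lower direction. It passed for 6 of 6 in KO, where 29% of all genes passed and 12.7% were lower. The median log2 difference of the members was -3.45 in WT and -3.39 in KO, against -0.041 and -0.032 over all genes tested. The 6 calls were kept under all 18 alternatives in each genotype. With no scaling beyond the library total, the median of all genes moved to -0.29 in WT and -0.26 in KO. The split of all calls then moved from 2059 higher and 1885 lower to 1400 and 3172 in WT, and from 2019 and 1577 to 1447 and 2722 in KO. Summed markers of other cells also differed between the tissues. The dendritic and Langerhans cell markers summed to 114 to 225 CPM in skin and 35.0 to 58.1 in spleen, with Cd207, which defines Langerhans cells, at 0 in 7 of the 8 libraries. That sum lay mostly in Epcam and Xcr1. Zbtb46, a dendritic cell factor of the same list, went the other way with TMM scaling. It had 2.55 CPM in WT skin against 7.79 in WT spleen, and 5.87 in KO skin against 10.6 in KO spleen. The endothelial markers summed to 81.2 to 126 CPM in skin and 294 to 403 in spleen, almost wholly from Pecam1, which T cells also express. The part of these cells in the tissue differences was not tested.

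**Figure D2:**
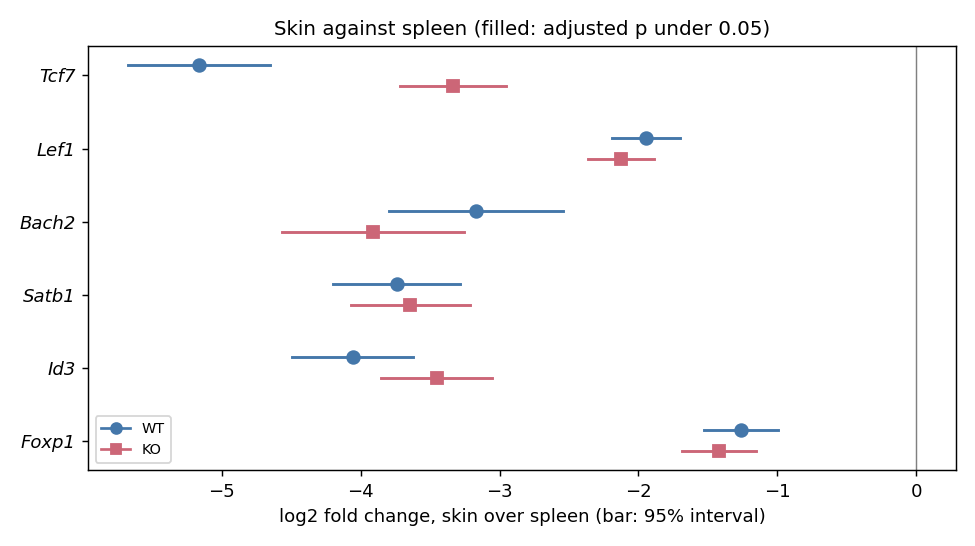
Log2 fold change of skin over spleen for each factor in WT (circles) and KO (squares) Tregs, with 95% intervals. All 12 points lie below 0 and are filled because their adjusted p was under 0.05, and Tcf7 is the member whose WT and KO intervals stand apart.

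Compared per kilobase of exon sequence annotated in GENCODE M21, the order of the members differed between the tissues. The annotation behind the counts is not given, and reads of Satb1, Foxp1 and Lef1 could be divided with overlapping genes. The order between genes is uncertain to that extent, beyond the spread of the libraries. In WT spleen the levels in CPM per kb were 169 ± 4.97 for Id3, 111 ± 6.31 for Tcf7, 43.5 ± 0.184 for Lef1, 26.2 ± 0.545 for Foxp1, 15.3 ± 0.514 for Satb1 and 5.38 ± 0.123 for Bach2. Each neighbour in that order lay beyond the spread of the next. In WT skin the order was Lef1 with 11.3 ± 0.115, Foxp1 with 10.9 ± 1.41, Id3 with 9.75 ± 1.99, Tcf7 with 3.04 ± 1.64, Satb1 with 1.10 ± 0.412 and Bach2 with 0.563 ± 0.165. Lef1, Foxp1 and Id3 did not differ beyond their spread there, and Tcf7 stood below them. In KO skin Id3 (16.2 ± 5.72), Tcf7 (12.6 ± 0.568), Lef1 (12.2 ± 0.899) and Foxp1 (11.7 ± 1.6) were within each other's spread, with Satb1 at 1.67 ± 0.482 and Bach2 at 0.423 ± 0.0406. Tcf7 thus lay among the other abundant members in KO skin. The KO spleen order was that of WT spleen, from 181 ± 15.2 for Id3 to 7.14 ± 0.699 for Bach2.

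In skin Tregs Tcf7 was the member that rose in the KO. It went from 7.98 ± 4.31 CPM in WT to 33.0 ± 1.49 in KO, a 4.14-fold rise (95% interval 2.85 to 6.01; log2 2.05 ± 0.255, adjusted p = 0.000340, edgeR) that ranked 5 by p among the 12414 genes. The other 5 members did not pass, so 1 of 6 was called, where 0.894% of all genes were called and 0.306% were called higher. The call was kept in 18 of 18 alternatives, with log2 values between 1.54 and 2.62. The lowest came without WT skin replicate 1 and the highest without WT skin replicate 2, since these 2 libraries differed from each other. Tcf7 stood at 11.3% of its WT spleen level in KO skin, against 2.74% in WT skin.

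Id3 and Satb1 had intervals above 0 in skin but did not pass over all genes. Id3 was at 17.5 ± 3.56 CPM in WT and 29.0 ± 10.2 in KO (log2 0.70 ± 0.224, unadjusted p = 0.00521, adjusted p = 0.179, edgeR). It passed without the low-count filter (adjusted p = 0.0126) and without KO skin replicate 2 (log2 1.01, adjusted p = 0.0346), but had a log2 difference of 0.29 (adjusted p = 0.779) without KO skin replicate 1. Satb1 was at 20.8 ± 7.84 CPM in WT and 31.8 ± 9.17 in KO (log2 0.57 ± 0.232, unadjusted p = 0.0239, adjusted p = 0.348, edgeR). Its difference ran from 0.24 without KO skin replicate 1 to 1.04 without WT skin replicate 1, and it passed in none of the 18 alternatives. Unadjusted p-values were under 0.05 for 3 of the 6 members, all higher, and for 5.51% of all genes in that direction.

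Lef1, Foxp1 and Bach2 showed small differences in skin. The log2 difference was 0.12 (95% interval -0.13 to 0.37) for Lef1, 0.10 (-0.17 to 0.38) for Foxp1 and -0.34 (-1.11 to 0.44) for Bach2, so that for Bach2 the counts left a wide interval. The sign for Foxp1 turned to -0.022 without WT skin replicate 2 and to -0.043 without KO skin replicate 2. Tcf7, Lef1 and Id3 had both KO libraries above both WT libraries, and 20.1% of all genes showed that arrangement. The median log2 difference of the members was 0.34, against 0.0070 over all genes, and moved to 0.59 without WT skin replicate 1 and 0.19 without WT skin replicate 2.

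**Figure D3:**
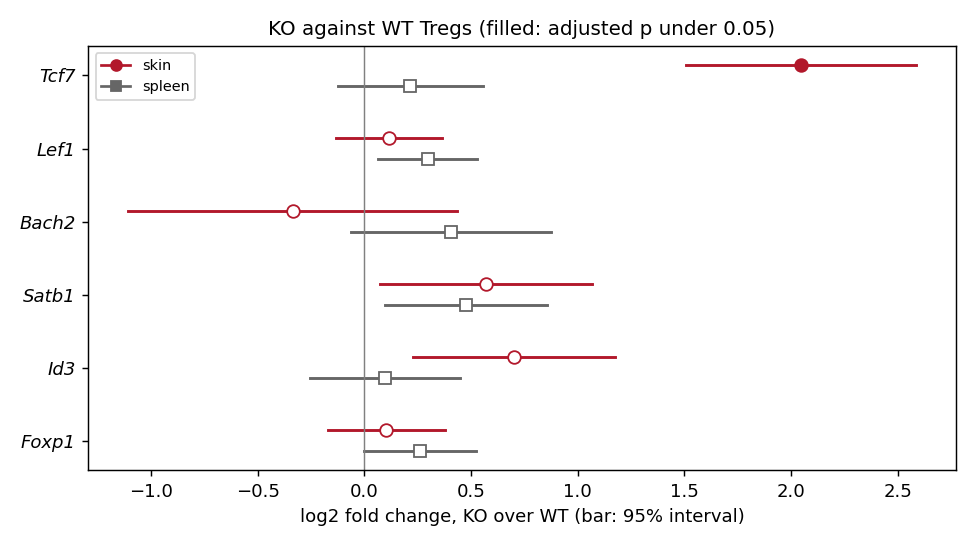
Log2 fold change of KO over WT for each factor in skin (circles) and spleen (squares) Tregs, with 95% intervals and filled points where the adjusted p was under 0.05. The skin point of Tcf7 at 2.05 is the single filled one, and the other 11 points lie between -0.34 and 0.70.

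In spleen Tregs 0 of 6 members passed with edgeR, DESeq2 or limma-voom, where with edgeR 0.282% of all genes were called and 0.00806% (1 gene) were called higher. All 6 estimates were above 0, in every one of the 18 alternatives, as were 49.5% of the genes tested. Satb1 was at 292 ± 9.79 CPM in WT and 406 ± 9.16 in KO (log2 0.48 ± 0.178, 95% interval 0.10 to 0.86, unadjusted p = 0.0178, adjusted p = 0.465, edgeR). Lef1 was at 382 ± 1.62 CPM in WT and 470 ± 10.04 in KO (log2 0.30 ± 0.110, 0.06 to 0.53, unadjusted p = 0.0154, adjusted p = 0.434, edgeR). These were the 2 members with an unadjusted p under 0.05, and 2.75% of all genes had such a p in the higher direction. Bach2 had a log2 difference of 0.41 (-0.06 to 0.87), Foxp1 of 0.26 (-0.0021 to 0.52), Tcf7 of 0.22 (-0.12 to 0.55) and Id3 of 0.10 (-0.26 to 0.45). Both KO libraries lay above both WT libraries for 5 of 6 members, the exception being Id3, and for 18.8% of all genes. The members' median was 0.28, against -0.0020 over all genes.

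The genotype effect on Tcf7 was larger in skin than in spleen. The difference of the 2 effects was 1.83 ± 0.301 on the log2 scale (95% interval 1.20 to 2.47, adjusted p = 0.0202, edgeR), rank 4 of the 12414 genes. It was the single member called, and 0.0967% of all genes were called. The call ended on leaving out 1 of 4 libraries, with values of 1.32 (adjusted p = 0.113) without WT skin replicate 1, 1.79 (0.113) without KO skin replicate 1, 1.88 (0.0604) without KO skin replicate 2 and 1.75 (0.0867) without WT spleen replicate 2. The same quantity for Id3 was 0.61 ± 0.279 (unadjusted p = 0.0396, adjusted p = 0.492). For Satb1 it was 0.10, for Foxp1 -0.16, for Lef1 -0.18 and for Bach2 -0.74 ± 0.429, none of which passed. Averaged over both tissues, Tcf7 was 2.19-fold higher in the KO (log2 1.13 ± 0.151, adjusted p = 0.000526), again as the single member called, where 0.789% of all genes were called. Satb1 averaged 0.52 ± 0.146 (adjusted p = 0.148, edgeR) and was called in 4 of 17 alternatives, among them without WT skin replicate 1 (adjusted p = 0.0145) and without KO skin replicate 2 (0.0493).

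Ratios taken within a library do not depend on how libraries were scaled. Per 100 counts of Lef1 the skin libraries held 4.95 and 11.2 counts of Tcf7 in WT and 30.2 and 31.5 in KO, and the spleen libraries 73.4 and 79.0 in WT against 75.5 and 68.7 in KO. The KO skin libraries stood between WT skin and spleen, and the spleen groups overlapped. Per 100 counts of Id2, the family member typical of effector cells, the skin libraries held 3.83 and 3.24 counts of Id3 in WT and 10.2 and 5.31 in KO, and the spleen libraries 726 and 397 against 876 and 1056. Both KO groups lay above the WT group of the same tissue. In spleen Id3 itself overlapped between the genotypes, while Id2 was at 58.6 CPM in WT and 33.7 in KO. For Bach2 against Prdm1, which encodes the effector factor BLIMP-1, the counts per 100 in skin were 3.14 and 5.74 in WT against 3.40 and 3.06 in KO, and in spleen 296 and 158 against 415 and 451. The skin groups overlapped, and every spleen ratio was far above the skin ratios. In spleen both KO ratios lay above both WT ratios. There Bach2 was at 53.5 CPM in WT and 71.0 in KO, and Prdm1 at 26.1 in WT and 16.4 in KO. Foxp1 stood at 49.4 and 35.7 counts per 100 of Foxp3 in skin of WT and 55.7 and 53.9 of KO mice, and at 174 and 210 against 223 and 222 in spleen, with KO above WT in each tissue. In skin Foxp1 itself overlapped between the genotypes, while Foxp3 was at 355 CPM in WT and 294 in KO.

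**Figure D4:**
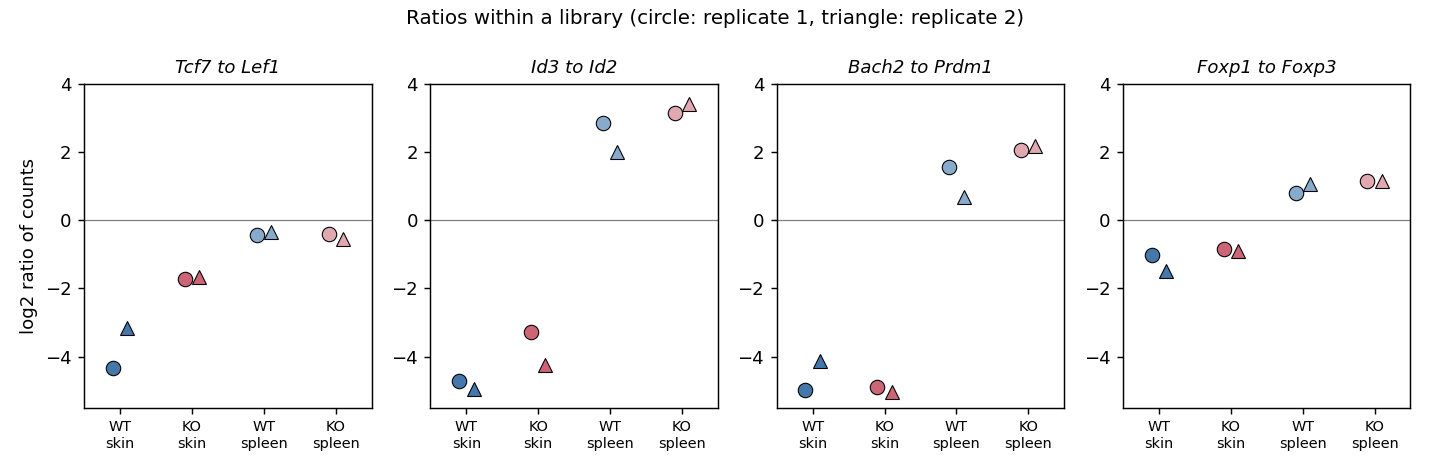
Log2 ratio of counts within each library for 4 pairs of genes, with circles for replicate 1 and triangles for replicate 2. Tcf7 to Lef1 in KO skin lies between WT skin and spleen, while Bach2 to Prdm1 in skin overlaps between the genotypes.

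Genes of the proteins through which TCF-1 and LEF1 act were read between genotypes as a list. Of 20 genes of the TCF/LEF family, the TLE corepressors and the beta-catenin pathway, 16 were tested and 0 passed in skin or in spleen with edgeR, DESeq2 or limma-voom. With edgeR 0.894% of all genes passed in skin and 0.282% in spleen, so 0 calls among 16 does not set these genes apart. Unadjusted p-values under 0.05 numbered 0 in skin and 1 in spleen with edgeR. In the higher direction alone, 5.51% of all genes had such a p in skin and 2.75% in spleen. The median log2 differences of the 16 were -0.049 and 0.025, against 0.0070 and -0.0020 over all genes. Ctnnb1, which encodes beta-catenin, had 51.5 CPM in WT skin and 48.9 in KO skin. The smallest p-values in skin belonged to Bcl9l, a beta-catenin coactivator (21.1 CPM in WT, 29.5 in KO, adjusted p = 0.485), and Tcf7l1, another TCF gene at 1.08 and 0.132 CPM (adjusted p = 0.487). In spleen they belonged to Ctnnbip1, a beta-catenin inhibitor near the detection limit (1.37 and 0.135 CPM, adjusted p = 0.615), and Gsk3b, a kinase of the beta-catenin destruction complex (92.1 and 111 CPM, adjusted p = 0.717).

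Of 15 relatives and partners of the other members, 10 were tested. With edgeR 0 passed in skin, where 0.894% of all genes passed, and 0 in spleen, where 0.282% passed. Limma-voom also called 0 in either tissue, and DESeq2 called 0 in skin and 1 in spleen (Id2), where it called 82 of the 12414 genes. Id2 had 491 ± 42.2 CPM in WT skin and 381 ± 39.0 in KO skin (adjusted p = 0.523), and 58.6 ± 22.7 and 33.7 ± 1.62 in spleen (adjusted p = 0.248). In both tissues the KO libraries lay below the WT libraries. Bach1, the other BACH gene, had 19.4 ± 1.82 CPM in WT skin and 8.02 ± 0.246 in KO skin (log2 -1.23, adjusted p = 0.144). Tcf4, which encodes an E protein of the kind that ID3 blocks, had 2.52 ± 1.47 CPM in WT skin and 7.41 ± 1.10 in KO skin (log2 1.42, adjusted p = 0.408, edgeR). Both KO skin libraries of Tcf4 lay above both WT skin libraries, as for 20.1% of all genes. Foxp3, the defining Treg factor, had 355 ± 35.2 CPM in WT skin and 294 ± 47.2 in KO skin (adjusted p = 0.486), and 189 ± 20.6 and 194 ± 4.90 in spleen (adjusted p = 0.993). The median log2 difference of the 10 was -0.26 in skin and 0.0098 in spleen.

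Genes typical of resting lymphoid T cells rose with Tcf7 in KO skin in part. Of 20 listed and tested, 3 passed in skin, all higher, where 0.306% of all genes were called higher. The median of the 20 was 0.26, or 0.14 without KO skin replicate 1 and 0.46 without WT skin replicate 1, against 0.0070 over all genes. Ccr7, a chemokine receptor of lymph node homing, went from 39.0 ± 5.68 to 97.4 ± 12.8 CPM (log2 1.32 ± 0.136, adjusted p = 0.000115, edgeR). It was called in 18 of 18 alternatives. The membrane proteins Ms4a6b (310 ± 9.18 to 472 ± 58.6 CPM, log2 0.61, adjusted p = 0.00605) and Ms4a4b (290 ± 10.7 to 475 ± 132 CPM, log2 0.71, adjusted p = 0.0367) also rose. Both calls ended without WT skin replicate 1 (adjusted p = 0.0684 and 0.282) and without KO skin replicate 1 (0.113 and 0.194), and that of Ms4a4b also without WT skin replicate 2 (0.0757) or WT spleen replicate 1 (0.0849) or 2 (0.0807) and with the skin groups fitted alone (0.0639). Klf3, a quiescence factor of the KLF family, was at 48.7 ± 0.912 and 70.7 ± 8.72 CPM (adjusted p = 0.0730). In spleen 0 of the 20 passed with edgeR or DESeq2, and 1 passed with limma-voom (Ccr7), which called 42 of the 12414 genes. With edgeR 3 had an unadjusted p under 0.05, all higher, against 2.75% of all genes in that direction. The spleen median was 0.28, and 18 of 20 were above 0, as were 49.5% of all genes. Of these 20 genes, 16 were lower in skin than in spleen in WT, where Il7r was higher, and 17 in KO, against 15.2% and 12.7% of all genes.

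Of 16 transcription factors of effector and tissue Tregs, 2 passed in KO skin, in opposite directions. Bhlhe40, which encodes a tissue-residency factor, rose in KO skin from 218 ± 23.8 to 350 ± 39.5 CPM (log2 0.68, adjusted p = 0.0302, edgeR). Gata3, a factor of type 2 and skin Tregs, fell from 1193 ± 286 to 782 ± 63.8 CPM (log2 -0.61, adjusted p = 0.0357, edgeR), where 0.588% of all genes were called lower. Both calls ended without WT skin replicate 1 (adjusted p = 0.299 and 0.400), without KO skin replicate 1 (0.344 and 0.319), without KO skin replicate 2 (0.0768 and 0.113), and without robust estimation (0.0541 and 0.0586), and that of Gata3 also with no scaling beyond the library total (0.0536) and with the skin groups fitted alone (0.0639). The median of the 16 was 0.0036 in skin and -0.43 in spleen, against 0.0070 and -0.0020 over all genes, and the spleen median ran from -0.58 to -0.25 on leaving out 1 library. In spleen 14 had estimates below 0, where 49.5% of all genes were above 0. With edgeR or limma-voom 0 passed, and with DESeq2, which called 82 of the 12414 genes, 1 passed (Tbx21). Nfil3 was at 25.1 ± 5.54 CPM in WT and 5.13 ± 4.57 in KO, and Maf at 91.5 ± 3.95 and 60.3 ± 7.08 (adjusted p = 0.106 for each). Prdm1 had 130 ± 16.6 CPM in WT skin and 130 ± 2.76 in KO skin. Of the 16, 13 were higher in skin than in spleen in WT and all 16 in KO, or 11 and 15 with no scaling beyond the library total. Among all genes 16.6% and 16.3% were higher in skin.

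**Figure D5:**
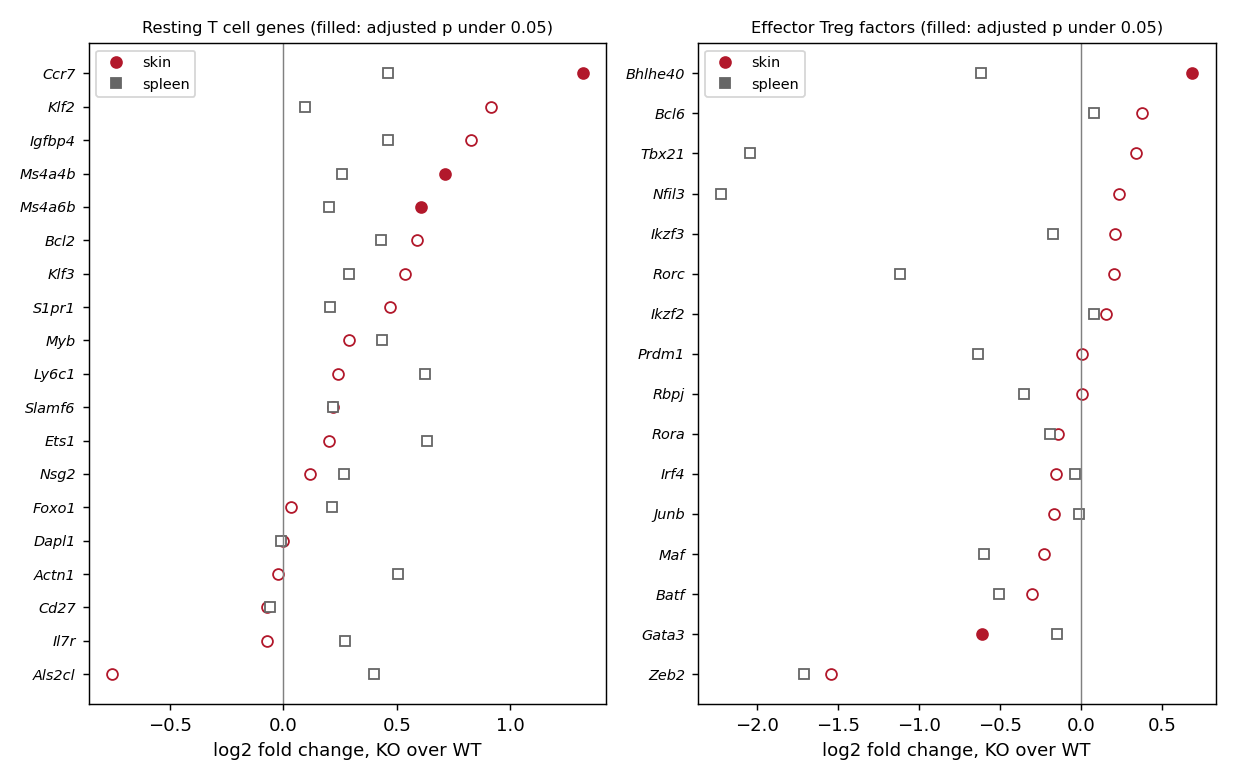
Log2 fold change of KO over WT in skin (circles) and spleen (squares) for 19 of the 20 genes of resting T cells (left) and factors of effector Tregs (right), filled where the adjusted p was under 0.05. Ccr7, Ms4a4b, Ms4a6b and Bhlhe40 are filled on the right of 0 and Gata3 on the left, all in skin, and most spleen points of the effector factors lie below 0.

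Markers of other cell types were summed in the skin libraries of both genotypes, in CPM of the total count. The myeloid markers summed to 1.93 to 2.69 CPM in WT skin and 4.13 to 4.48 in KO skin, without overlap. Csf1r of that list was, with TMM scaling, at 0.247 to 0.356 CPM in WT skin and 1.81 to 3.44 in KO skin. Adgre1, which defines macrophages, was at 0 in 3 of the 4 skin libraries. The CD8 T and NK cell markers, whose cells can also express Tcf7, summed to 3.85 to 18.8 CPM in WT skin and 7.01 to 14.6 in KO skin and overlapped. The B cell markers summed to 16.4 to 29.6 and 27.0 to 29.1 CPM, with Ms4a1 and Pax5 at 0 in all 4 skin libraries. The dendritic and Langerhans cell markers summed to 193 to 225 CPM in WT skin and 114 to 146 in KO skin, and lay mostly in Epcam and Xcr1. With TMM scaling Xcr1, a chemokine receptor of cross-presenting dendritic cells, was at 87.2 to 90.8 CPM in WT skin and 6.34 to 15.3 in KO skin, while Epcam overlapped (119 to 160 and 102 to 141 CPM). Zbtb46, a factor of classical dendritic cells, had the opposite order, at 2.14 to 2.96 and 4.49 to 7.24 CPM. Flt3 of the same list was not detected in the WT skin libraries and was detected in both KO skin libraries. The part of these cells in the rise of Tcf7 was not tested. The gamma delta T cell markers summed to 7.16 to 8.99 CPM in WT skin and 5.32 to 18.0 in KO skin. The fibroblast and keratinocyte markers overlapped between the skin groups, at no more than 15.4 and 3.13 CPM in any library.

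Over the 8 libraries the members rose and fell together, mostly with tissue. Pearson correlations of log2 CPM between members ran from 0.919 (Tcf7 with Bach2) to 0.996 (Satb1 with Id3), and each member had between 621 and 780 of 9299 genes above a correlation of 0.9, since all share the gap between skin and spleen libraries. The genes most like Tcf7 were Capn3 (0.996), Limd2 (0.995) and Cd96 (0.994). These genes were chosen for their likeness over the same 8 libraries, so their genotype differences were not taken as results. Lef1 was most like Mgst2 (0.998), the survival gene Bcl2 (0.998) and Nod1 (0.997), and Bach2 most like Sp110 (0.996), Ms4a4c (0.993) and Inpp5f (0.992). Among the genes most like Satb1 were S1pr1 (0.996), a receptor for lymphocyte exit from lymphoid organs, and Treml2 (0.996). Id3 was most like Gimap3, Gimap9 and Ralgps2 (0.997 each), and Foxp1 most like Tcp11l2 (0.997), Nudt16 (0.996) and Rasal1 (0.995).

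Several members share their locus with other annotated genes, and whether the counting used strand is not stated in the labels. Reads of Satb1 could be divided with C230085N15Rik, a transcript on the same strand with 10 to 709 counts per library, those of Foxp1 with Gm20696 (33 to 368 counts) and those of Lef1 with Gm42449 (3 to 233 counts). C230085N15Rik went from 5.85 ± 3.24 CPM in WT to 10.1 ± 1.85 in KO libraries of skin and from 125 ± 4.95 to 174 ± 7.53 in spleen, the same order of groups as Satb1. None of these 3 transcripts passed between genotypes in skin or spleen, and all 3 were lower in skin than in spleen in both genotypes. The antisense transcripts of Tcf7 (A630014C17Rik, up to 8 counts) and of Bach2 (Bach2os, up to 15 counts) were low in every library. The levels of Satb1, Foxp1, Lef1 and Bach2 are uncertain to that extent.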

How the data were processed

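The deposited values were raw counts per gene symbol, made by the authors with STAR 2.7.3a and featureCounts on mm10, per the submitters' processing notes. Not given in the sources used here are the annotation, the strand setting and how multi-mapping reads were handled. Per the labels' protocols, polyadenylated RNA was copied to cDNA, amplified and tagmented, and read as 2 reads of 25 bases. Genes were filtered with filterByExpr (minimum count 10) and scaled by TMM in edgeR 4.0.16 (R 4.3.3). The robust quasi-likelihood test had 1 coefficient per group over all 8 libraries, fold changes used a prior count of 2, and the common biological coefficient of variation was 17.5%. SEs came from the fitted model. CPM per kb divides by the union of annotated exons.

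The members and the gene lists were chosen with earlier results of these data known. Named were all members and Pparg, list genes past the threshold in a genotype comparison or otherwise those with the smallest p (up to 4 per list and comparison), and the 3 genes most correlated with each member among genes of average log2 CPM of at least 2. Ctnnb1 and Prdm1 were named in addition, after their values were seen, and 1 gene is not reported here. Alternatives were DESeq2 1.42.0, limma-voom (limma 3.58.1), other scalings and filters, a replicate block and leaving out each library. The scripts were tested on simulated data.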

Additional observations from a re-analysis of the deposited data

Results flagged for a closer look

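The genotype effect on Tcf7 differed between the tissues by a test of the difference itself, with an effect larger in skin by 1.83 on the log2 scale (adjusted p = 0.0202, edgeR's quasi-likelihood test). Tcf7 rose by 2.05 in skin, where both KO libraries were above both WT libraries, and had a log2 difference of 0.22 in spleen, where the same was true. No member could be screened for single libraries standing apart, since each group had 2 libraries.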

How the results depend on the processing

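With no low-count filter the calls over all genes were 344 in skin, 154 in spleen, 288 averaged over tissues and 233 for the interaction, and the calls among the members 2 in skin and 3 averaged. With DESeq2 the calls were 82 in spleen and 87 for the interaction, with 2 members averaged, and with limma-voom 59 for the interaction. The counts in the fit reported were 111, 35, 98 and 12. Leaving out 1 library gave 29 to 209 calls in skin, 7 to 119 in spleen, 49 to 142 averaged, 1 to 146 for the interaction, 2633 to 3927 between tissues in WT and 2476 to 3759 in KO. The members called then numbered 1 to 2 in skin, 0 to 0 in spleen, 1 to 2 averaged, 0 to 1 for the interaction and 6 to 6 between tissues in either genotype. Upper-quartile scaling split the skin calls into 52 higher and 64 lower, against 38 and 73.

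Signs turned on leaving out 1 library in 4 cases. Foxp1 in skin ran from -0.043 to 0.24 (below 0 without WT skin replicate 2, at -0.022, and without KO skin replicate 2, at -0.043). Averaged Bach2 ran from -0.11 to 0.17 (-0.11 without WT skin replicate 1, -0.013 without KO skin replicate 1, -0.018 without KO spleen replicate 2). The interaction of Satb1 ran from -0.23 to 0.56 (-0.20 without WT skin replicate 2, -0.23 without KO skin replicate 1) and that of Pparg from -0.21 to 0.63 (-0.033 without KO skin replicate 2, -0.21 without WT spleen replicate 1). None of these values passed the test in the fit reported. The cause of these shifts was not tested.

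With the replicate number as a block, calls were 135 in skin, 51 in spleen, 109 averaged and 16 for the interaction, and no call among the members changed. The labels do not say that the numbers pair libraries. In every group replicate 1 held Xist RNA and replicate 2 held Y-linked RNA, so the block also takes up the sex difference. Replicate 1 deviations correlated between groups by 0.0283 to 0.112, or by -0.0342 to 0.0492 without sex-linked genes. The list genes were added as results to these alternatives after seeing the data. With 2 libraries per group, leaving 1 out assumes that the lone library varies like the other groups. Bach2 and Tcf7 in skin rest on few counts, which limits the precision of their differences.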
